A study of Mus musculus with 2 samples.

Results

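AA465934, Ints2 and Rnf43 are 3 genes of mouse chromosome 11 whose RNA had been seen to be higher in Trpv1-ADC than in CTRL mice, and that difference is why they were chosen. They were found by symbol among the 55487 gene symbols of the deposited list, 2979 of which could be placed on chromosome 11. Because the contrast between the groups chose them, its values for these 3 genes are given as a description, without a test. Their levels across cell classes, the genes around them and the other genes of their pathways were not used in the choice. Barcodes left out of the kept cells hold RNA of the same 4 mice, so their values for these genes are a description too.

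The study sorted CD45+ cells from the cecum and asked what immune cells transcribe when Trpv1+ nociceptors, sensory neurons for pain and heat with the channel that capsaicin opens, are activated. There were 2 CTRL mice, which were littermates, and 2 Trpv1-ADC mice, all male and 101 days old, and each mouse is 1 replicate. All 4 had received AAV intraperitoneally as newborns and 7 injections of CNO, the drug that switches on designer receptors, 1 every other day. The labels give the strains as Trpv1-WT.B6 and Trpv1-Cre.B6 for the pool and do not say which mouse was of which, so strain and group cannot be told apart. Anti-CD45 antibodies with DNA hashtags marked the mice (hashtags 1 and 3 for CTRL 1 and 2, hashtags 7 and 9 for Trpv1-ADC 1 and 2), and the cells went through a single droplet run. With 2 mice a group, a permutation of mice cannot give a p below 0.333.

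AA465934 is a spliced transcript without an annotated protein, and an intron of it holds Snord7, a small nucleolar RNA of the class that guides ribose methylation of other RNAs. Ints2 encodes a subunit of Integrator, the complex that cuts the 3′ ends of small nuclear RNAs and ends transcription at many genes whose polymerase has paused. Rnf43 encodes a membrane ubiquitin ligase that, like its relative Znrf3, removes Frizzled receptors from the cell surface and so dampens Wnt signalling, and R-spondins bound to Lgr receptors take the ligase away. In the gut it is best known from epithelial stem cells.

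All 3 lie on the same side of Trpv1, which is at chr11:73234292-73261242 (GRCm38, the build named mm10 by the submitters). AA465934 (ENSMUSG00000093483.1, annotated as a processed transcript) is on the + strand at chr11:83291699-83294632, starting 10.06 Mb from the start of Trpv1. Ints2 (ENSMUSG00000018068.13) is on the - strand at chr11:86210681-86257575, 13.02 Mb from it, and lies within the span of the antisense gene Brip1os. Rnf43 (ENSMUSG00000034177.15) is on the + strand at chr11:87662722-87735539, 14.4 Mb from it, and holds the sense intronic gene 1110028F11Rik and the small nuclear RNA gene Gm25968. Whether the counting used strand is not given in the sources used here, so reads of Ints2 and Brip1os may have been mixed. The promoters are printed because the 3 genes were chosen together for a shared direction, and each window of 300 bases runs from 250 before to 50 after a RefSeq start (GRCm38.p6), 5′ to 3′ on the gene's own strand. Capitals mark every match to the motifs searched on both strands, which were CCAAT, the cAMP response element core TGACG, the whole element TGACGTCA, the E-box CACGTG, the ETS core CCGGAAG, the GC box GGGCGG and TATAAA.

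AA465934, chr11:83291449-83291748, + strand: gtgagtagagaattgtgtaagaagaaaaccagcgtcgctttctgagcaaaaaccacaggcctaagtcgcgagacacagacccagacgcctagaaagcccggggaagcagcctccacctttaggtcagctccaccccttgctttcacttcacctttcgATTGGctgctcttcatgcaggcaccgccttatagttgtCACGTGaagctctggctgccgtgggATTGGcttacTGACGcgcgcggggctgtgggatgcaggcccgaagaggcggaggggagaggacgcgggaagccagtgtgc

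Ints2, chr11:86257545-86257844, - strand: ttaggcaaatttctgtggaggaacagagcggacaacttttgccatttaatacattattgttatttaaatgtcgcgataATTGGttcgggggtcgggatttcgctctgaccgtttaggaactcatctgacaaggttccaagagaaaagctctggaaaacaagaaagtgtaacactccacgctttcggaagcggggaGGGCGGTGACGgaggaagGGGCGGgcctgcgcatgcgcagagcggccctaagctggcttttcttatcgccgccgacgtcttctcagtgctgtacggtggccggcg

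Rnf43, first start, chr11:87662837-87663136, + strand: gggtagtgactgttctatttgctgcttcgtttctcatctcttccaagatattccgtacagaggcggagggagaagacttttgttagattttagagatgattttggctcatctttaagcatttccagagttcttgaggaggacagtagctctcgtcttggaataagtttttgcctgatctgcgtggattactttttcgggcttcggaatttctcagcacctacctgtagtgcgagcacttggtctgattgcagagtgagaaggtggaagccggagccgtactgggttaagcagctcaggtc

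Rnf43, second start, chr11:87699647-87699946, + strand: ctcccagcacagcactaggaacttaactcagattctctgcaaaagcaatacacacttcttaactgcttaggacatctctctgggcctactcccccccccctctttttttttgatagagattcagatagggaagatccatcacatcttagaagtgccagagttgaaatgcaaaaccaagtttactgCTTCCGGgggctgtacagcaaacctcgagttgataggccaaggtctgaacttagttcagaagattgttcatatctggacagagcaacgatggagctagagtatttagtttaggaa

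Percentages here are shares of the 32851 promoters of the same length with at least 1 match. The AA465934 window held 2 CCAAT boxes (37.41%), 1 cAMP response element core (20.81%) and 1 E-box (7.15%). The Ints2 window held 1 CCAAT box, 1 element core and 2 GC boxes (35.66%), the first of which abuts the element core. The first Rnf43 window held none of the motifs, and the second held 1 ETS core (8.86%). No window held TATAAA (8.32%) or the whole cAMP response element (1.79%). The windows had 18, 23, 10 and 3 CpG sites in the order printed, and GC contents of 58.0%, 52.3%, 46.7% and 44.3%, beside a median of 52.7% over all promoters. So the motifs found in the AA465934 window and in either Rnf43 window were different, and these matches are letters in a window, with nothing measured on binding.

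The cells kept numbered 4165 to 4531 per mouse (17519 in all), with 27586172 to 29905834 UMIs per mouse and a median of 5553 to 5689 UMIs per cell. Clusters were named from marker lists, and every mouse had 20 cells or more in 13 of the classes. One of them, fibroblast-like cells, had Ptprc, the gene of CD45, at 275 to 412 UMIs relative to all UMIs on the counts-per-million scale (CPM), against 1215 to 1418 CPM over all cells. Intraepithelial-type T cell-like cells were 10.0% and 13.9% of the cells in the CTRL mice and 6.28% and 4.75% in the Trpv1-ADC mice, and naive CD8 T cell-like cells 11.2% and 8.62% against 14.9% and 19.9%, so values over all cells also reflect a different mix. Ribosomal protein genes took 15.6% and 15.5% of the CTRL UMIs and 16.8% and 17.6% of the Trpv1-ADC UMIs, and 10 heat-shock and dissociation genes 0.731% and 0.864% against 0.971% and 1.02%. The part of these differences in the values below was not tested.

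AA465934 was read in all 4 mice, and its level in the Trpv1-ADC mice was far above that in the CTRL mice. Over all cells it had 221 UMIs in CTRL 1, 166 in CTRL 2, 1134 in Trpv1-ADC 1 and 1175 in Trpv1-ADC 2, which is 7.39, 5.93, 41.1 and 39.6 CPM. Both CTRL mice were low and both Trpv1-ADC mice high, with a mean of 6.66 ± 1.03 CPM in CTRL and 40.4 ± 1.04 CPM in Trpv1-ADC (SD, n = 2 each), a ratio of 6.06. The groups do not overlap, as was so with Trpv1-ADC above CTRL for 24% of the 18783 genes that passed the filter on low counts. The ratio was 5.76 when each of the 13 classes was given equal weight (7.31 and 5.93 CPM against 38.4 and 37.9).

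The difference was seen in class after class. In naive CD8 T cell-like cells AA465934 stood at 6.57 and 4.84 CPM in the CTRL mice and at 47.8 and 44.3 CPM in the Trpv1-ADC mice. In regulatory T cell-like cells it stood at 6.21 and 2.97 CPM against 43.9 and 43.6 CPM, the highest ratio of the classes (9.53). In intraepithelial-type T cell-like cells it stood at 10.2 and 7.24 CPM against 49.1 and 46.0 CPM. The Trpv1-ADC mice were close to each other in these 3 lymphocyte classes. The CTRL values of regulatory T cell-like cells were further apart and came from 11 and 5 UMIs, so the ratio there rests on few UMIs. Outside lymphocytes, monocyte or macrophage-like cells had 4.97 and 5.47 CPM against 21.1 and 26.4 CPM, the lowest ratio of the classes (4.55). Fibroblast-like cells, the class of low Ptprc, had 6.58 and 6.53 CPM against 44.1 and 32.4 CPM, so the difference was seen in this class too. Conventional dendritic cell of type 2-like cells had 3 and 0 UMIs in the CTRL mice and 9 and 4 in the Trpv1-ADC mice, too few for a ratio. Cells left unnamed, which hold cycling and interferon-signature cells and a cluster of low depth, had 7.29 and 7.66 CPM against 49.7 and 51.1 CPM.

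Both Trpv1-ADC mice were above both CTRL mice in all 13 classes, beside 21.6% of the 117518 pairs of a gene and a class that were tested. The gene passed the filter on low counts in 12 classes, and the median ratio over the 12 classes with enough UMIs was 5.48. Among the small classes with fewer than 20 cells in some mouse, neutrophil-like cells had 1 UMI in each CTRL mouse and none in the Trpv1-ADC mice, and plasma cell-like cells had 2 and 1 UMIs against 10 and 1.

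**Figure D1:**
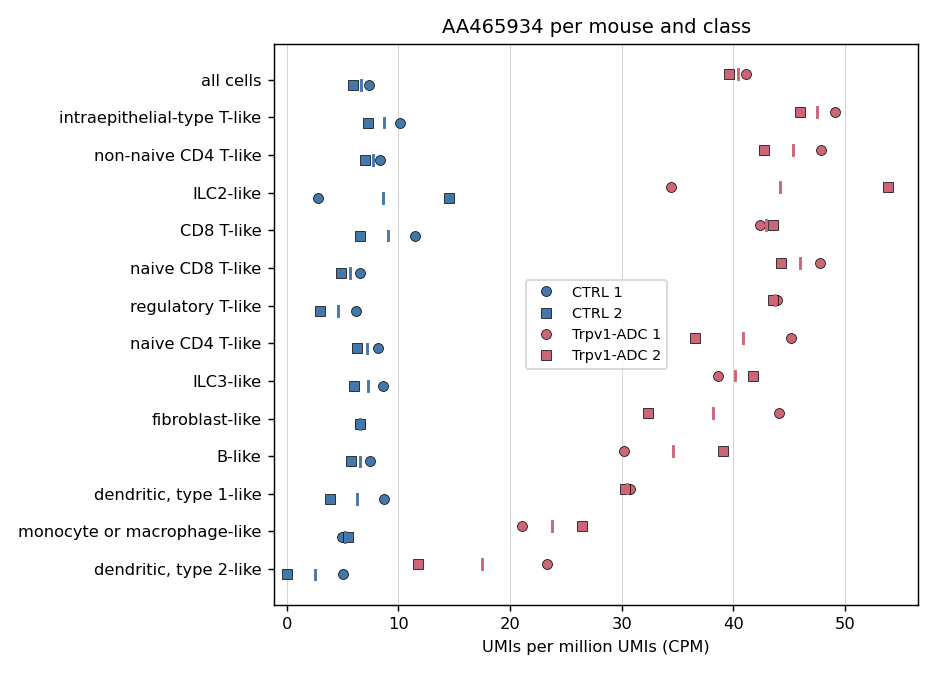
AA465934 in CPM (x axis) in each mouse (points) for all cells and the 13 classes (rows, ordered by the mean of the 4 mice), with vertical bars at group means. The Trpv1-ADC points lie right of the CTRL points in every row, and the CTRL points stay between 0 and 14.5 CPM.

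Seen per cell, AA465934 was sparse in both groups. It had a UMI in 4.53% of the cells of CTRL 1 (exact Clopper-Pearson 95% interval 3.93% to 5.19%) and 3.77% of those of CTRL 2 (3.21% to 4.39%). In Trpv1-ADC 1 the share was 21.6% (20.4% to 22.9%) and in Trpv1-ADC 2 20.9% (19.8% to 22.1%), and the intervals cover counting error only. After each cell was thinned to 2000 UMIs, which left out 261, 157, 113 and 70 shallower cells in the same order of mice, the mean share was 1.17% in CTRL and 7.42% in Trpv1-ADC mice. No cell had more than 3 UMIs of it in the CTRL mice and 11 in the Trpv1-ADC mice, so no single cell carries the difference.

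Barcodes that were not counted as cells of a mouse carried the gene in the order of their hashtags. Of the barcodes without a call, 763 whose leading tags were both of CTRL mice had AA465934 at 9.93 CPM, 1750 with a tag of each group had 26.2 CPM, and 484 with both tags of Trpv1-ADC mice had 48.0 CPM. The mixed barcodes stood between those of either group. These barcodes hold RNA of the same 4 mice whose contrast chose the gene, so their order is a description only. The tag rule asked for a top tag of at least 10 counts and at least 3 times the next. Just inside it, at 3 to 4 times the next tag, barcodes with a CTRL tag on top had 17.7 CPM (226 barcodes) and those with a Trpv1-ADC tag on top 43.0 CPM (138). Just outside it, at 2 to 3 times, the values were 21.8 CPM (481) and 34.4 CPM (153). Barcodes close to the limit were therefore nearer to each other than the cells of the 4 mice as a whole. With a top tag of at least 30 counts and 5 times the next, the CTRL mice had 6.20 and 5.40 CPM and the Trpv1-ADC mice 41.4 and 39.4 CPM, a ratio of 6.96, and with HTODemux calls 5.61 and 5.38 against 40.9 and 39.4 CPM, a ratio of 7.32. How much of the CTRL level came from free RNA or mixed droplets of the shared run was not tested.

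**Figure D2:**
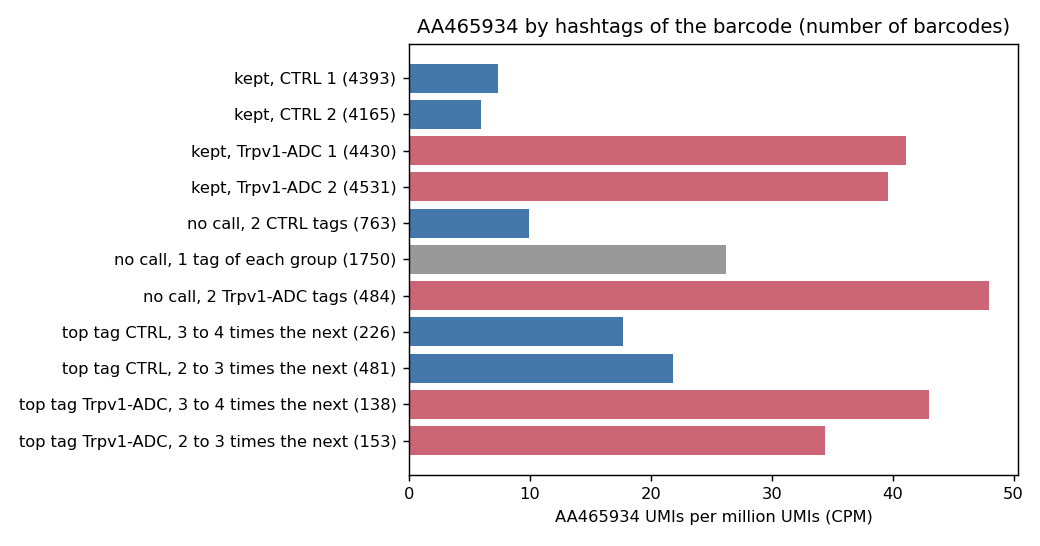
AA465934 in CPM (x axis, bars from 0) for the kept cells of each mouse and for barcodes grouped by their hashtags (rows, number of barcodes in brackets). Barcodes with a tag of each group, at 26.2 CPM, lie between those with 2 CTRL tags and those with 2 Trpv1-ADC tags.

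Snord7, the small nucleolar RNA inside AA465934, had 4 and 1 UMIs over all cells of the CTRL mice and 4 and 5 over those of the Trpv1-ADC mice. At so few UMIs a difference was not detectable. Trpv1 itself had 3, 1, 1 and 1 UMIs over all cells of the 4 mice, in the order CTRL 1, CTRL 2, Trpv1-ADC 1 and Trpv1-ADC 2.

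Ints2 differed less between the groups. Over all cells it had 298, 313, 383 and 463 UMIs in the same order, which is 9.97 and 11.2 CPM in the CTRL mice and 13.9 and 15.6 CPM in the Trpv1-ADC mice. The groups do not overlap (24% of all genes had Trpv1-ADC above CTRL in this way), with means of 10.6 ± 0.859 and 14.8 ± 1.23 CPM (SD, n = 2 each) and a ratio of 1.40. In intraepithelial-type T cell-like cells it stood at 17.1 and 14.2 CPM in CTRL and 25.6 and 31.2 CPM in Trpv1-ADC mice. In B cell-like cells it stood at 12.9 and 14.4 CPM against 18.0 and 29.9 CPM, with the Trpv1-ADC mice far apart from each other. Regulatory T cell-like cells had 10.7 and 15.5 CPM against 10.1 and 14.4 CPM, and here the groups overlap. In conventional dendritic cell of type 1-like cells both Trpv1-ADC mice were lower, at 6.58 and 7.90 CPM against 8.67 and 9.603 CPM, from 3 to 10 UMIs a mouse.

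Of the 13 classes, Ints2 did not overlap and was higher in Trpv1-ADC mice in 7, was lower without overlap in 1 and overlapped in 5, beside 21.6% of all tested pairs with Trpv1-ADC above CTRL, and nothing is read from this count. It had ratios from 0.793 to 1.99 and a median of 1.58. It passed the filter on low counts in 10 classes. The share of cells with an Ints2 UMI was 6.19% ± 0.515 in CTRL and 7.97% ± 0.646 in Trpv1-ADC mice (SD, n = 2 each), and 2.08% and 2.98% after thinning. Brip1os, whose span on the other strand covers Ints2, had 21.9, 19.9, 20.7 and 20.4 CPM over all cells, and the groups overlap. In intraepithelial-type T cell-like cells it had 27.3 and 20.1 CPM in CTRL and 32.0 and 42.5 CPM in Trpv1-ADC mice, the same order of groups as Ints2. In monocyte or macrophage-like cells it had 21.1 and 11.6 CPM against 26.9 and 25.6 CPM. The part of mixed reads in the Ints2 values was not tested.

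Rnf43 was the member most tied to particular cell classes. Over all cells it had 320, 343, 448 and 537 UMIs, or 10.7 and 12.3 CPM in the CTRL mice and 16.2 and 18.1 CPM in the Trpv1-ADC mice. The groups do not overlap, beside the same 24% of all genes, and their means were 11.5 ± 1.10 and 17.2 ± 1.33 CPM (SD, n = 2 each), a ratio of 1.497. With equal weight for each class the mice stood at 11.1, 11.1, 19.95 and 24.7 CPM and the ratio was 2.01.

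ILC3-like cells, innate lymphocytes of the gut that make Il22, had the highest level of the 13 classes, at 47.6 and 48.4 CPM in the CTRL mice and 70.2 and 108.7 CPM in the Trpv1-ADC mice. Of the 10 leading genes of their cluster, 2 were ILC3 markers (Il22 and Ncr1). Ncr1, Klrb1b and Klrb1c, all among the leading genes, are on the marker list of natural killer cells or ILC1. Non-naive CD4 T cell-like cells had 13.6 and 26.0 CPM against 56.3 and 50.02 CPM. In intraepithelial-type T cell-like cells the mice of a group were nearly equal, at 18.7 and 19.8 CPM against 39.9 and 39.9 CPM. ILC2-like cells had 11.3 and 7.25 CPM against 30.6 and 33.7 CPM from 3 to 10 UMIs a mouse, the highest ratio of the classes (3.47). Regulatory T cell-like cells had 15.3 and 7.73 CPM against 21.6 and 23.1 CPM. These 5 classes show both Trpv1-ADC mice above both CTRL mice. Naive CD8 T cell-like cells, among the lowest, had 1.20 and 0.880 CPM against 1.92 and 1.61 CPM. Monocyte or macrophage-like cells had 6 and 3 UMIs in the CTRL mice and 1 and 0 in the Trpv1-ADC mice, the other way round.

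B cell-like cells show how 1 cell can move such a value. They had 14.8 and 7.36 CPM in the CTRL mice and 9.16 and 8.84 CPM in the Trpv1-ADC mice, but 24 of the 38 UMIs of CTRL 1 were in a single cell of 4623 UMIs. Without that cell CTRL 1 had 14 UMIs and 5.48 CPM, and the groups no longer overlap, with Trpv1-ADC higher. Over all cells, CTRL 1 then had 9.90 CPM.

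Of the 13 classes, Rnf43 did not overlap and was higher in Trpv1-ADC mice in 8, was lower without overlap in 1 and overlapped in 4, again beside 21.6% of all tested pairs and with nothing read from it. The median ratio was 1.91, and it passed the filter on low counts in 8. Among the small classes it was high in gamma delta T cell-like cells (59.4 and 30.3 CPM against 77.4 and 165.1) and in natural killer cell or ILC1-like cells (68.1 and 48.3 against 60.2 and 62.7), where the groups overlap. The few epithelium-like cells had 43.8 and 56.2 CPM in the CTRL mice and 16.7 CPM in Trpv1-ADC 2, and Trpv1-ADC 1 had none of these cells.

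Since Rnf43 is a gene of the gut epithelium, the summed level of 9 epithelial markers is set beside it. It is given for the classes where both Trpv1-ADC mice were higher for Rnf43. All 9 had UMIs in each of these classes but ILC2-like and fibroblast-like cells, where 8 did. In ILC3-like cells the sum was 53.8 and 52.2 CPM in CTRL and 44.8 and 49.0 CPM in Trpv1-ADC mice, and in non-naive CD4 T cell-like cells 23.0 and 26.8 against 20.3 and 18.0 CPM, so it was not higher in the group with more Rnf43. In intraepithelial-type T cell-like cells it was 186 and 161 against 229 and 237 CPM, and in regulatory T cell-like cells 21.5 and 30.3 against 44.6 and 37.4 CPM, higher in the Trpv1-ADC mice. The part of epithelial RNA in the Rnf43 level of these classes was not tested. Over all cells the sum was 229 and 279 CPM in CTRL and 38.9 and 116 CPM in Trpv1-ADC mice, lower in the group with more Rnf43.

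**Figure D3:**
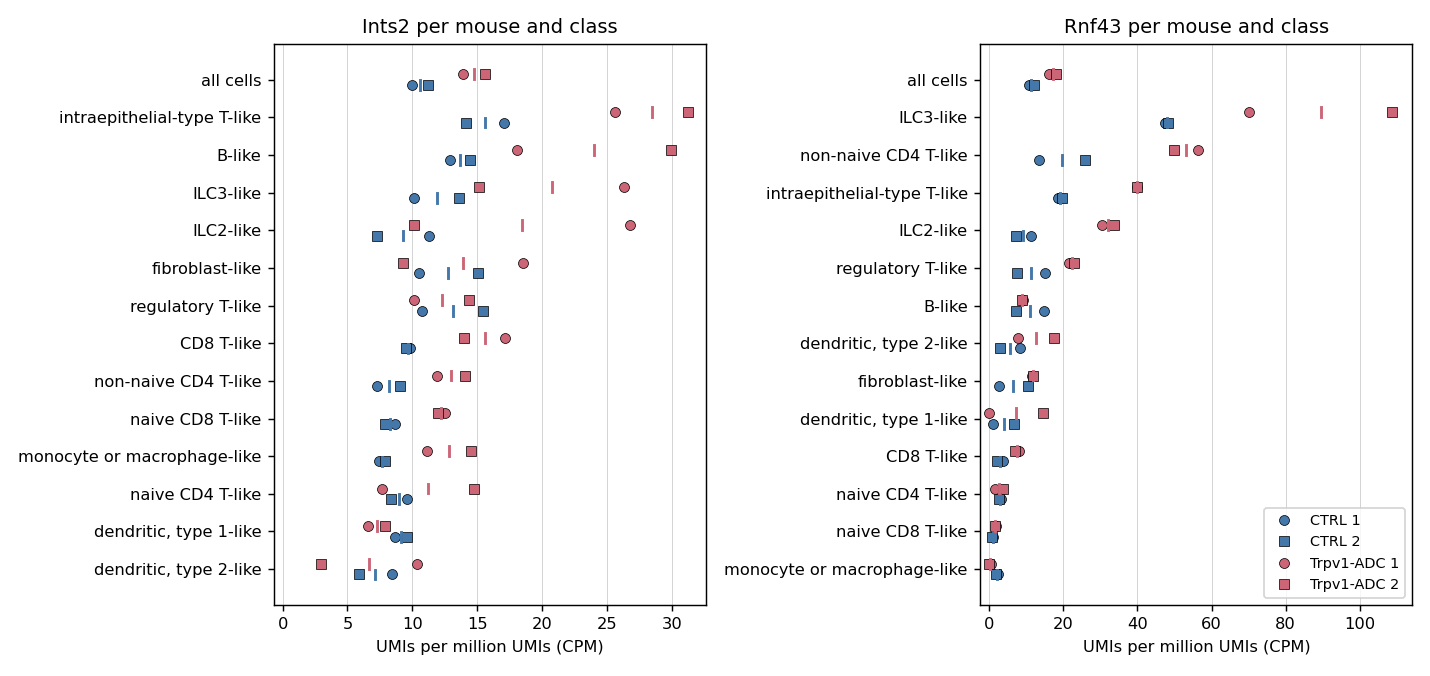
Ints2 (left) and Rnf43 (right) in CPM (x axes) in each mouse (points) for all cells and the 13 classes (rows, ordered by the mean of the 4 mice), with vertical bars at group means. Ints2 reaches 31.2 CPM, in intraepithelial-type T cell-like cells, with the groups overlapping in 5 classes, while Rnf43 reaches 108.7 CPM in ILC3-like cells and stays under 4 CPM in both naive T cell-like classes.

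Shares of cells with a UMI followed the levels of Rnf43. In ILC3-like cells they were 19.7% (95% interval 14.3% to 26.1%) and 22.4% (16.8% to 28.9%) in the CTRL mice and 25.9% (19.8% to 32.9%) and 36.9% (30.3% to 43.9%) in the Trpv1-ADC mice, at median depths of 5847 to 6186 UMIs. Naive CD8 T cell-like cells, at median depths of 5990.5 to 6576.5 UMIs, had 0.557% to 1.21%, and monocyte or macrophage-like cells had 0% to 1.04%. The 0 was 0 of 145 cells, which allows up to 2.07% by the limit of 3 counts (the exact 95% upper bound is 2.51%). The ILC3-like shares were far above those of these low classes, which stand for the background. Over all cells the mean share was 5.34% for the CTRL mice against 7.21% for the Trpv1-ADC mice (1.96% and 2.97% after thinning).

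The levels of the members across classes, which did not choose them, could be tested. With the mouse as a covariate, the level differed between the 13 classes for AA465934 (edgeR quasi-likelihood F test, Benjamini-Hochberg adjusted p = 0.000337), for Ints2 (adjusted p = 4e-04) and for Rnf43 (adjusted p = 1.52e-20). Nearly every gene does so in these data: 96.4% of the 13130 genes tested passed. Within the CTRL mice alone the adjusted p was 0.48 for AA465934, 0.232 for Ints2 and 3.26e-10 for Rnf43, and within the Trpv1-ADC mice alone 0.00255, 0.00979 and 4.08e-17, with the difference between these fits not tested. AA465934 had 221 and 166 UMIs in the CTRL mice against 1134 and 1175, so the CTRL fit was less able to show a difference. In the CTRL mice no 2 classes next to each other in the order of AA465934 levels were apart, in the sense that both mice of one were above both of the other. In the Trpv1-ADC mice its order ran from 47.5 ± 2.23 CPM in intraepithelial-type T cell-like cells to 23.7 ± 3.78 in monocyte or macrophage-like and 17.5 ± 8.15 in conventional dendritic cell of type 2-like cells. There, regulatory T cell-like cells were apart from CD8 T cell-like cells next to them, and conventional dendritic cell of type 1-like from monocyte or macrophage-like cells, and the other neighbours in the order were not. For Ints2 intraepithelial-type T cell-like and B cell-like cells led in both groups, and only ILC3-like and CD8 T cell-like cells in the CTRL mice were neighbours apart. For Rnf43 the order of the CTRL means was ILC3-like (48.0 ± 0.564), non-naive CD4 (19.8 ± 8.77) and intraepithelial-type T cell-like cells (19.3 ± 0.779), and in the Trpv1-ADC mice the same classes led, each apart from the next (89.5 ± 27.2, 53.2 ± 4.43 and 39.9 ± 0.0222 CPM). Non-naive CD4 and intraepithelial-type T cell-like cells did not differ beyond their spread in the CTRL mice.

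Among all genes, 46 passed an adjusted p of 0.05 in the edgeR quasi-likelihood test of Trpv1-ADC against CTRL over all cells, which is 0.245% of those tested. AA465934 was among them and Ints2 and Rnf43 were not, a description only, as the contrast chose them. On the others, 41 of 17397 genes passed (0.236%). On chromosome 11 it was 5 of 1386 (0.361%) with AA465934 counted, so no excess is read from these 5 genes. Besides AA465934 these were 2610035D17Rik, higher by 0.85 on the log2 scale (SE 0.071, adjusted p = 0.035, 39.81 Mb from Trpv1), Nsg2, higher by 0.58 (SE 0.063, adjusted p = 0.046), Mir22hg at -0.75 (SE 0.084, adjusted p = 0.046, 2.23 Mb) and Tns3 at -0.70 (SE 0.081, adjusted p = 0.0498). Nsg2, a gene of neuronal vesicle trafficking, and Tns3, which links adhesion sites to the cytoskeleton, lie on the far side of Trpv1, 41.23 and 64.8 Mb away. These 5 genes lay on both sides of Trpv1 and went both ways, and a pattern of position along the chromosome was not tested. Without CTRL 1 or without Trpv1-ADC 1 a single chromosome 11 gene passed, and the adjusted p of 2610035D17Rik was then 0.0569 or 0.0805. Mir22hg, Tns3 and Nsg2 missed the threshold without any 1 of the 4 mice (adjusted p 0.0696 to 0.113). Elsewhere the largest fold change among the called genes was that of the zinc receptor gene Gpr39, at -3.63 (SE 0.325, adjusted p = 0.0423), with 2.44 and 2.89 CPM in CTRL and 0.181 and 0.236 CPM in Trpv1-ADC mice. Gpr39 missed the threshold in 5 of 13 alternatives, among them the fits without Trpv1-ADC 1 and without Trpv1-ADC 2 (log2 -3.83 to -3.12 over all alternatives).

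**Figure D4:**
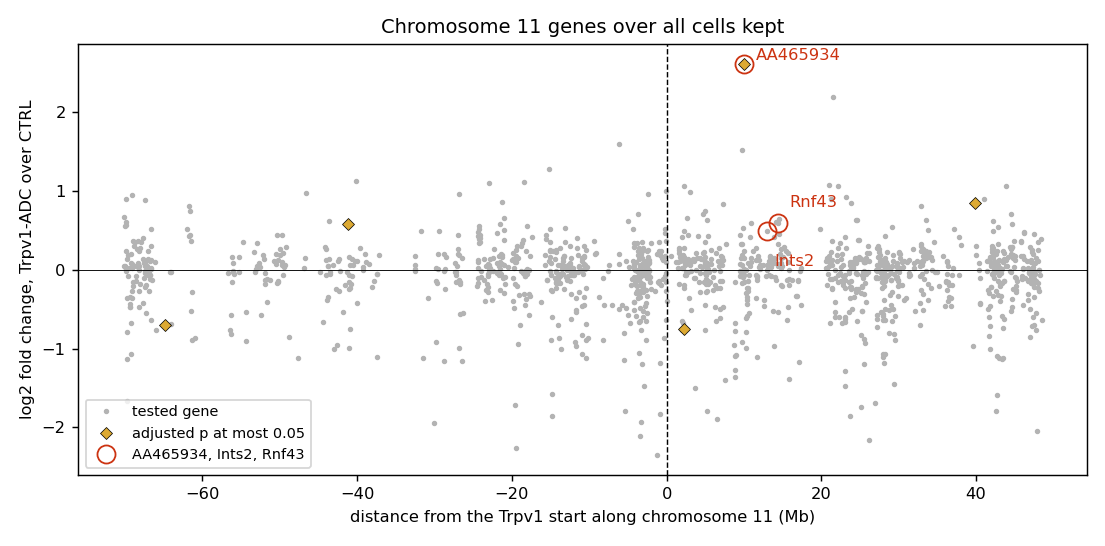
Fitted log2 fold change, Trpv1-ADC over CTRL over all cells (y axis), of each tested chromosome 11 gene by its distance from the start of Trpv1 in Mb (x axis, dashed line at Trpv1). Diamonds mark the 5 genes with an adjusted p of at most 0.05 and circles the 3 members: AA465934 at 2.61, Ints2 at 0.50 and Rnf43 at 0.60.

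Class by class, 1226 of the 117518 pairs of gene and class were called (1.04%), 115 of 9624 on chromosome 11 (1.195%) and between 0.520% and 1.32% on the other chromosomes. The 115 hold 11 pairs of AA465934 and 1 of Rnf43, which this contrast chose, so no excess is read from them. AA465934 was called higher in 11 classes, which is a description only, as this contrast chose it, and it is not set against other genes. Of the genes that are no members, Odc1, the rate-limiting enzyme of polyamine synthesis, was called lower in 6 classes and Antxr2, an anthrax toxin receptor, lower in 5. Genes tested in at least 8 classes numbered 8795. Members aside, the heat-shock gene Hsph1 and Swt1 had both Trpv1-ADC mice above both CTRL mice in every class. Tcf25 had both lower in every class. The classes come from the same 4 mice, so they are not independent repeats. As a description, Rnf43 was called in 1 class, intraepithelial-type T cell-like cells, where 7.21% of the 10347 genes tested were called, and Ints2 in none. In windows of 100 genes along the chromosome, 16 of 352 pairs were called in the window of AA465934 (4.55%), of which AA465934 itself made up 11 and Slfn9 4. The window of Ints2 and Rnf43 had 3 of 404 (0.743%) and that of Trpv1 1 of 159 (0.629%).

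**Figure D5:**
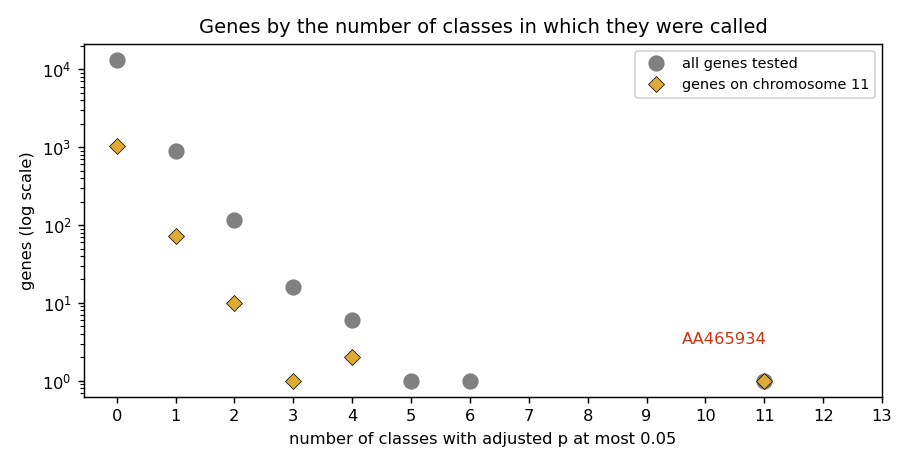
Number of genes (y axis, log scale) by the number of classes in which they had an adjusted p of at most 0.05 (x axis), for all genes tested in any class (circles) and those on chromosome 11 (diamonds). The point at 11 classes is AA465934, which this contrast chose, so nothing is read from its place. In none of the classes were 13193 genes called.

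Over all cells no gene next to a member passed the edgeR test, which called 11.3% of 1.5-fold and 63.1% of 2-fold changes in simulated data. Of the 20 genes on either side of AA465934, 22 were tested over all cells and 0 were called by edgeR (6 at an unadjusted p under 0.05), with a median log2 fold change of -0.13 and a range from -0.996 to 0.53. Around Ints2 it was 0 of 22 (0 unadjusted, median 0.05), around Rnf43 0 of 17 (2 unadjusted, median 0.14) and around Trpv1 0 of 16 (1 unadjusted, median 0.03), beside a median of 0.00 over all genes tested. DESeq2 called 1 of these neighbours, Ccl5, and leaving out Trpv1-ADC 2 gave 1 call. Med13, a Mediator subunit next to Ints2, was at 0.07 (adjusted p = 0.616). Ccl5, a chemokine of cytotoxic cells in the same stretch as AA465934, had 929 and 1002 CPM in CTRL and 497 and 608 CPM in Trpv1-ADC mice (log2 -0.79, adjusted p = 0.0698). Per class, 2 neighbours were called, both in intraepithelial-type T cell-like cells, where 7.21% of all genes tested were called. Rad51c, a DNA repair gene near Rnf43, rose from 10.99 and 12.6 CPM to 39.1 and 65.9 CPM (log2 2.05, SE 0.269, adjusted p = 0.0024). Ppm1d, a phosphatase of the p53 response near Ints2, fell from 77.7 and 81.5 CPM to 54.1 and 39.0 CPM (log2 -0.82, SE 0.181, adjusted p = 0.0217). Rad51c passed the threshold in all 14 alternatives tried (log2 1.67 to 2.35) and Ppm1d in 13 of 15 (-1.14 to -0.61).

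Slfn9, a Schlafen gene 0.31 Mb before AA465934 and 22 genes away, so just outside its neighbour list, was picked out after its values were seen. Over all cells it had 4.15 and 5.86 CPM in CTRL and 14.8 and 13.6 CPM in Trpv1-ADC mice (log2 1.52, SE 0.187, adjusted p = 0.0523). It was called higher in 4 of the 9 classes where it was tested. In naive CD4 T cell-like cells it rose from 1.68 and 2.45 CPM to 17.4 and 10.4 CPM (log2 2.77, SE 0.378, adjusted p = 0.0014), and in B cell-like cells from 3.51 and 3.52 CPM to 15.6 and 23.1 CPM (log2 2.44, SE 0.332, adjusted p = 0.00497). The call in naive CD4 T cell-like cells held in all 14 alternatives, that in B cell-like cells was lost without CTRL 2 (adjusted p = 0.0573), and that in monocyte or macrophage-like cells without CTRL 1 (0.156) or Trpv1-ADC 2 (0.202). Over all cells none of the 8 tested members of the Schlafen family was called by edgeR (2 at an unadjusted p under 0.05, and 1 called by DESeq2, Slfn9), with a median log2 fold change of 0.21. Reads of those Schlafen genes that are alike in sequence may have been split by the counting, which was not tested.

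The other subunits of Integrator and the associated single-strand binding proteins gave no call over all cells. Of 17 tested over all cells, 0 were called by edgeR (3 at an unadjusted p under 0.05) and 0 by DESeq2, and their median log2 fold change was 0.05, beside 0.00 over all genes. Ints6, one of these subunits, had 78.5 and 83.7 CPM in CTRL and 86.9 and 106 CPM in Trpv1-ADC mice over all cells (log2 0.27, adjusted p = 0.272). It rose in intraepithelial-type T cell-like cells, from 127 and 134 CPM to 197 and 230 CPM (log2 0.64, SE 0.126, adjusted p = 0.0134), the sole call of the list in any class. That call missed the threshold in 2 of 15 alternatives, among them the fit without CTRL 1 (log2 0.41 to 0.71 over all alternatives).

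Of the Wnt receptor pathway around Rnf43, 36 other genes were tested over all cells and 0 were called by edgeR (9 at an unadjusted p under 0.05, and 3 called by DESeq2: Fzd1, Lef1 and Tcf7), with a median log2 fold change of -0.16. Nearest to the threshold were the T cell transcription factors Tcf7 (263 and 265 CPM against 348 and 333, adjusted p = 0.0695) and Lef1 (500 and 410 CPM against 690 and 742, adjusted p = 0.0748). Both are on the marker list that was used to name the naive T cell-like classes, and the share of naive CD8 T cell-like cells was higher in both Trpv1-ADC mice. The part of the cell mix in these 2 differences was not tested. Fzd1, a Frizzled receptor, had 13.7 and 8.97 CPM against 6.42 and 5.23 CPM (adjusted p = 0.147). Per class, the Wnt coreceptor gene Lrp5 rose in B cell-like cells from 0 and 0.640 CPM to 7.81 and 11.2 CPM (adjusted p = 0.0069), and Ctnnb1, which encodes beta-catenin, fell in intraepithelial-type T cell-like cells from 139 and 151 CPM to 112 and 84.1 CPM (log2 -0.62, SE 0.157, adjusted p = 0.038). Lrp5 passed in all 14 alternatives. Ctnnb1 missed the threshold in 4 of 15, among them the fits without CTRL 2 and without Trpv1-ADC 2 (log2 -0.90 to -0.42 over all alternatives).

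Genes whose pattern was most like that of a member were taken from 10769 genes over 52 points, 1 per tested class and mouse, by Pearson's r of log2(CPM + 1). The points share mice, depth and cell mix, so r is a description. They span both groups, so r also carries the contrast that chose the members. For AA465934 they were Chordc1 (r = 0.69), Stip1 (0.68), Swt1 (0.61), 4930481A15Rik (0.60) and Slc25a25 (0.60). For Ints2 they were Swt1 (0.70), Efl1 (0.69), Ahsa2 (0.68), Khnyn (0.68) and Tmem184c (0.67). For Rnf43 they were Ric1 (0.84), 6720464F23Rik (0.81), Kcnk5 (0.78), AU020206 (0.77) and Pdcd1lg2 (0.76). Swt1 stood in the lists of AA465934 and Ints2, and of the 15 entries Ahsa2 alone lies on chromosome 11.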

How the data were processed

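Expression and hashtag data of CD45+ cecum cells were used (CTRL and Trpv1-ADC, 2 mice each). The deposited matrices hold raw UMI counts per gene symbol and barcode and raw counts per hashtag and barcode. Cell Ranger, Seurat and the build mm10 are named per the submitters' processing notes, without versions, while aligner settings, annotation release and strand are not given in the sources used here. The labels name both 5′ v3 and 3′ v3 chemistry, so which end of a gene was read is not certain.

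Barcodes with at least 500 UMIs, 200 genes and at most 10% mitochondrial UMIs (22729 of 23063) were given to a mouse where its tag had at least 10 counts and 3 times the next (19571). Scrublet (scanpy 1.11.5, expected rate 0.2) marked 2052 of these and 45.2% of the 2997 barcodes with more than 1 tag, and 17519 cells were kept. Cells were clustered by Leiden (leidenalg 0.10.2, 30 principal components of 2000 variable genes, 15 neighbours, resolution 1, seed 0) without the 3 genes and without receptor segments. Clusters were called like a type by their best marker list. After the clusters were seen, non-T clusters with Cd3e above 100 CPM, cycling or interferon-signature clusters, and clusters led by markers of another type were left unnamed. So was a cluster of low depth without a marker of its type among its leading genes (274 cells, median 887 UMIs). Unnamed cells made up 3.71% to 6.67% of cells per mouse.

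Each mouse's counts were added up within a class, and edgeR 4.0.16 tested the sums in R 4.3.3 (TMM, filterByExpr, robust quasi-likelihood, two-sided, Benjamini-Hochberg over all genes tested, threshold 0.05), without covariates for the group contrast and with the mouse as covariate across classes. The test was checked on simulated data. Over all cells it called 11.3% of the 1.5-fold, 63.1% of the 2-fold and 98.4% of the 4-fold changes put in. A list with 0 calls therefore does not show that its genes were unchanged. Alternatives were DESeq2 1.42.0, other normalization, filters, tag rules (Seurat 5.3.0 HTODemux), clusterings, a replicate block and leaving out each mouse. Symbols were placed by GENCODE M21 and RefSeq on GRCm38 (1036 were not placed). Besides the 3 members, genes were named by rule: the 10 largest called changes on chromosome 11 and elsewhere, called neighbours, called list members or the 4 with the smallest p, and the 5 genes most alike in pattern, of which the text describes a part. Odc1, Antxr2, Hsph1, Swt1, Tcf25, Ccl5, Med13 and Slfn9 were added after their values were seen. The members and the gene lists were chosen with earlier results of these data known. Same-numbered mice share only a number.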

Additional observations from a re-analysis of the deposited data

Results flagged for a closer look

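AA465934 was above the level of both CTRL mice (7.39 and 5.93 CPM) in barcodes that entered no comparison. It stood at 9.93 CPM in barcodes with 2 CTRL tags, 26.2 CPM with a tag of each group, 48.0 CPM with 2 Trpv1-ADC tags and 13.6 CPM where no tag was called and the next tag had fewer than 10 counts. Among barcodes marked as doublets by Scrublet it stood at 12.7 CPM under a CTRL tag and 43.8 CPM under a Trpv1-ADC tag.

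Ints2 was above both CTRL mice (9.97 and 11.2 CPM) by a little in barcodes with 2 CTRL tags (11.21 CPM), and stood at 13.6 CPM with a tag of each group, 14.6 CPM with 2 Trpv1-ADC tags, 12.2 CPM where the next tag was under 10 counts and 15.3 CPM in Trpv1-ADC barcodes marked by Scrublet. Rnf43 was above both CTRL mice (10.7 and 12.3 CPM) with a tag of each group (13.3 CPM), with 2 Trpv1-ADC tags (14.4 CPM) and in Trpv1-ADC barcodes marked by Scrublet (18.3 CPM). It was not above both with 2 CTRL tags (7.94 CPM), where the next tag was under 10 counts (0 CPM) or in CTRL barcodes marked by Scrublet (11.03 CPM).

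Ints2 in conventional dendritic cell of type 1-like cells differed by -1.89 CPM (Trpv1-ADC minus CTRL), with both Trpv1-ADC mice lower, whereas they were higher without overlap in 7 other classes. Rnf43 in monocyte or macrophage-like cells differed by -1.86 CPM, whereas 8 other classes had both Trpv1-ADC mice higher. These differences between classes were not tested, and they rest on 3 to 10 UMIs a mouse for Ints2 and 0 to 6 for Rnf43.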

How the results depend on the processing

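The count of genes called over all cells (46, of which 5 on chromosome 11 and 0 among 77 tested neighbour genes) moved with most settings. It was 699, 58 and 1 with DESeq2, 1057, 88 and 4 without the filter on low counts, 87, 13 and 1 with the stricter tag rule, and 7, 1 and 0 with the stricter cell filter. Without the robust fit it was 1, 1 and 0. Leaving out 1 mouse, where the lone mouse is assumed to vary like the other group, gave 6 to 69, 1 to 5 and 0 to 1, with 28 when CTRL 1 and 6 when Trpv1-ADC 1 was the mouse left out. Calls per class (1226) were 664 with DESeq2, 3626 without the filter, 559 with Scrublet calls kept and 1237 to 3762 with 1 mouse left out, the highest when it was Trpv1-ADC 1, and 1867 when it was Trpv1-ADC 2. With the replicate block, the counts were 473, 41 and 2 over all cells and 2420 per class, and the deviations of same-numbered mice correlated at 0.053 over 2 pairs, so they share only a number. Why these counts move was not tested.

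The log2 difference of AA465934 over all cells (2.61) was 2.81 with the stricter tag rule, 2.88 with HTODemux, 2.41 with Scrublet calls kept and 2.47 to 2.78 with 1 mouse left out. That of Rnf43 (0.60) was 1.01 with equal weight per class, an alternative chosen after seeing the data. Per class, all 180 alternative values of AA465934 were above 0 (1.59 to 3.84), while 7 of 149 of Ints2 and 5 of 120 of Rnf43 had the opposite sign to the reported one. Thinning took the shares of cells to 1.17% and 7.42% for AA465934, 2.08% and 2.98% for Ints2 and 1.96% and 2.97% for Rnf43. Of the 5 genes most alike, a pseudocount of 0.1 kept 2, 3 and 3 and one of 10 kept 4, 2 and 3 for the members in this order. The levels across classes stayed past the threshold under other clusterings, normalization and filter. Sparse counts limit Ints2 and Rnf43 in small classes.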
